A study of Homo sapiens with 2 samples.

Results

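The beta-tubulin family was described across the array table of K562 cells given a miR-34a mimic or a control mimic. Its members were the 8 genes TUBB1, TUBB, TUBB2A, TUBB2B, TUBB3, TUBB4A, TUBB4B and TUBB6, out of 19775 genes that the array's annotation named alone on at least 1 probe set. All probe sets with a member's symbol were taken, which gave 13 probe sets for single members and 1 shared by TUBB2A and TUBB2B, of 54675 in all. K562 is a human erythroleukemia line that can turn on red cell or platelet-lineage genes. The cells of one group received 3 µg of miR-34a mimic by nucleofection, an electrical transfer of nucleic acid, and those of the other 3 µg of control mimic, a sequence without homology to human genes. Both were harvested 24 hours later for total RNA, and each group was 1 culture on 1 Affymetrix array, so no test between groups was possible. Each value below is a single measurement whose precision is limited by the number of arrays.

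Beta-tubulin pairs with alpha-tubulin to form the heterodimer from which microtubules are built. Most of the beta isotypes have nearly the same core and differ mostly in the tail at the end of the protein. TUBB1 is the isotype of megakaryocytes and platelets, where it makes up much of the marginal band, the ring of microtubules that keeps a platelet flat, and it is used when megakaryocytes extend proplatelets. TUBB, TUBB4B, TUBB2A and TUBB6 are made in many tissues, whereas TUBB3, TUBB2B and TUBB4A are best known from neurons and the brain. Cells also hold tubulin mRNA levels in check by autoregulation, in which excess soluble tubulin triggers decay of the mRNAs being translated.

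The treatment itself was a mimic of mature miR-34a, a microRNA whose transcription is induced by p53. Its sequence is shown because its seed, bases 2 to 8 in capitals, is the part that pairs with target mRNAs. The sequence is that of RefSeq, build GRCh38.p14, chr1:9151735-9151756, minus strand.
hsa-miR-34a-5p: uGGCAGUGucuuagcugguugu
The exact oligonucleotide used as mimic was not analysed here, and seed matches in the tubulin mRNAs were not searched.

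TUBB1 had the largest ratio of the family and was the only member past 2-fold. Its probe set 230690_at read 314.5 with the miR-34a mimic and 91.2 with the control mimic, a signal ratio of 3.45. In RNA of whole cultures, more TUBB1 mRNA per cell and more cells that make it cannot be told apart, and the same holds for every gene here. On the log2(signal + 14.9) scale used throughout, after centring on the median gene, the log2 ratio was 1.62. Both signals lay above 75.4, the highest signal of 27 probe sets for bacterial transcripts, which served as the background limit. The control signal was close to that limit, so the size of the ratio depends on how low signals are treated. The second TUBB1 probe set, 208601_s_at, read 51.5 with the miR-34a mimic and 33.7 with the control mimic. It was higher with the miR-34a mimic as well, at a log2 ratio of 0.44, but both signals were within background. The 2 probe sets differed by 1.18 in log2 ratio, and their mean was 1.03 ± 0.84 (SD over 2 probe sets). Where a gene had several expressed probe sets, as 5494 genes did, the pooled SD between probe sets of a gene was 0.24. This spread is between probe sets on the same 2 arrays and says nothing about differences between cultures.

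Among all 12774 expressed genes, those whose mean level reached the array's median (a signal of about 39.0), 6 had a higher ratio than TUBB1. The members were chosen with earlier results of these data known, so this rank is a description and not a test. At least 2-fold higher ratios were held by 76 expressed genes, or 0.595%, and at least 2-fold lower ones by 70, or 0.548%. In the family 1 of the 6 expressed members was at least 2-fold higher and 0 were at least 2-fold lower. TUBB2B and TUBB4A did not pass the filter on low signals, so these counts do not cover them.

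**Figure D1:**
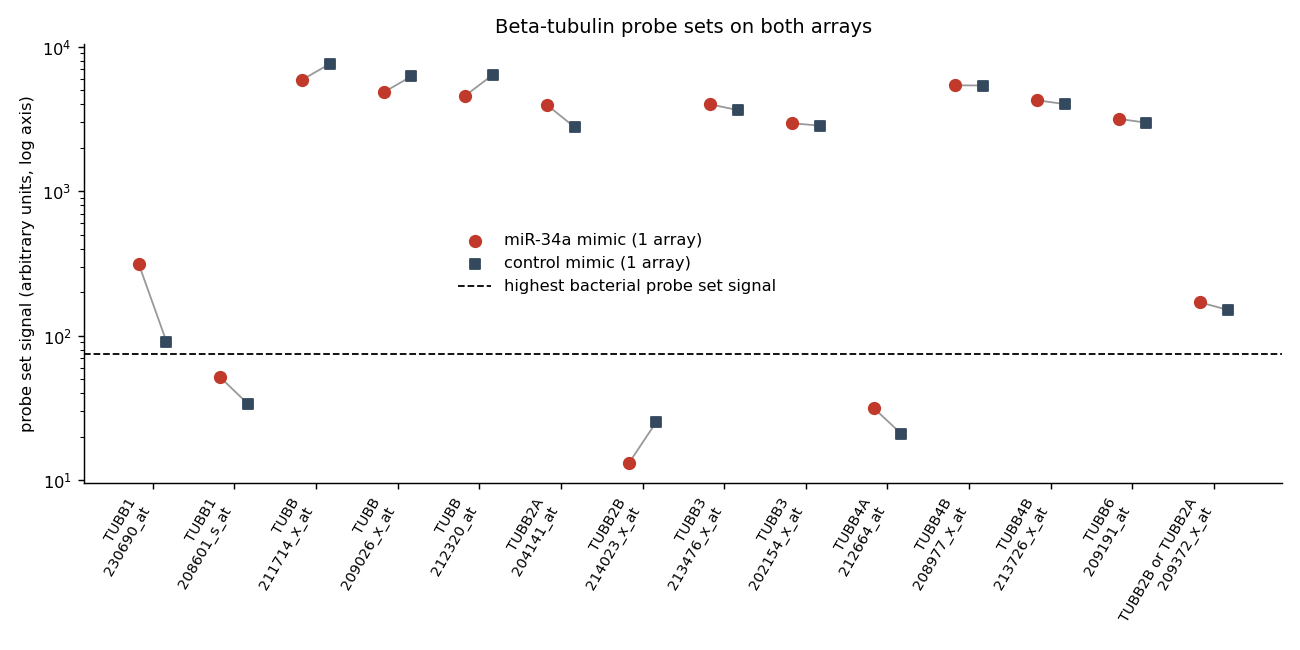
Signal of each beta-tubulin probe set (arbitrary units, log axis) with the miR-34a mimic (red circles) and the control mimic (dark squares), 1 array each; the dashed line marks the background limit of 75.4. The TUBB1 probe set 230690_at read 314.5 with the miR-34a mimic and 91.2 with the control mimic, the TUBB probe sets were lower with the miR-34a mimic, and heights of different probe sets cannot be set against each other.

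TUBB, the general beta-tubulin of dividing cells and a large part of the tubulin pool in many of them, was lower with the miR-34a mimic on each of its 3 probe sets. Probe set 211714_x_at read 5914 with the miR-34a mimic and 7607 with the control mimic. Probe set 209026_x_at read 4846 with the miR-34a mimic and 6243 with the control mimic. Probe set 212320_at read 4594 with the miR-34a mimic and 6422 with the control mimic. The signals were thus lower by 22.3, 22.4 and 28.5% with the miR-34a mimic, and the log2 ratios were -0.37, -0.37 and -0.49. Their mean was -0.41 ± 0.068 (SD over 3 probe sets). The probe sets were close to each other in size and far above background. The class of 212320_at marks probes designed against a single transcript, whereas the _x_at class of the other two may also bind related transcripts.

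The size of the TUBB difference was set beside genes of like brightness. Of 1674 expressed genes with signals of at least 1000 on both arrays, 9.68% were at least 1.2-fold lower and 5.91% at least 1.2-fold higher, whereas among all expressed genes these shares were 15.4% and 16.4%. TUBB, on its brightest probe set, had a lower ratio than all but 76 of the bright genes. For 337 genes with 2 or more probe sets at that brightness, the pooled SD between probe sets was 0.084. The limits of 1.2-fold and of 1000 were chosen after the values had been seen, and no spread between cultures stands behind them.

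TUBB2A, a general isotype also abundant in brain, went the opposite way. Its probe set 204141_at read 3960 with the miR-34a mimic and 2774 with the control mimic, a signal ratio of 1.43 and a log2 ratio of 0.50. This was the only probe set for TUBB2A alone, and 19 of the 1674 bright genes had a higher ratio. TUBB2A and TUBB thus lay 0.91 apart in log2 ratio (TUBB2A minus the mean of TUBB). The probe set 209372_x_at, annotated to both TUBB2A and its near-identical neighbour TUBB2B, read 170.2 with the miR-34a mimic and 151.1 with the control mimic. Its log2 ratio of 0.15 was in the same direction and smaller. TUBB2B itself, an isotype of developing neurons, read 13.1 with the miR-34a mimic and 25.4 with the control mimic on 214023_x_at, both within background, and no direction is read from it. Probe sets of this pair may bind both mRNAs.

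TUBB4B and TUBB6, the remaining widely made isotypes, differed little between the arrays. TUBB4B, also the beta-tubulin of cilia, read 5414 with the miR-34a mimic and 5396 with the control mimic on 208977_x_at, a log2 ratio of -0.0043. On 213726_x_at it read 4265 with the miR-34a mimic and 4015 with the control mimic, a log2 ratio of 0.078. TUBB6, a divergent isotype, read 3174 with the miR-34a mimic and 2983 with the control mimic, a log2 ratio of 0.080. Both genes stayed within 1.2-fold, as did 68.3% of expressed genes and 84.4% of the bright ones.

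TUBB3, the isotype used as a neuronal marker, was bright on both of its probe sets. Probe set 213476_x_at read 3995 with the miR-34a mimic and 3645 with the control mimic. Probe set 202154_x_at read 2959 with the miR-34a mimic and 2846 with the control mimic, and the log2 ratios of the pair were 0.12 and 0.047. Of 12 neuronal marker genes, 9 were under the filter, and the 3 others, SNAP25, INA and ELAVL4, had log2 ratios of -0.26, -0.24 and 0.034. ELAVL4 alone was above background on both arrays, at 124.7 with the miR-34a mimic and 120.6 with the control mimic. Both TUBB3 probe sets belong to the _x_at class, as 7 of the 13 single-member probe sets did, and how much of their signal comes from other beta-tubulin mRNAs was not tested. TUBB4A, a beta-tubulin of brain, read 31.7 with the miR-34a mimic and 20.9 with the control mimic on its only probe set, within background on both.

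**Figure D2:**
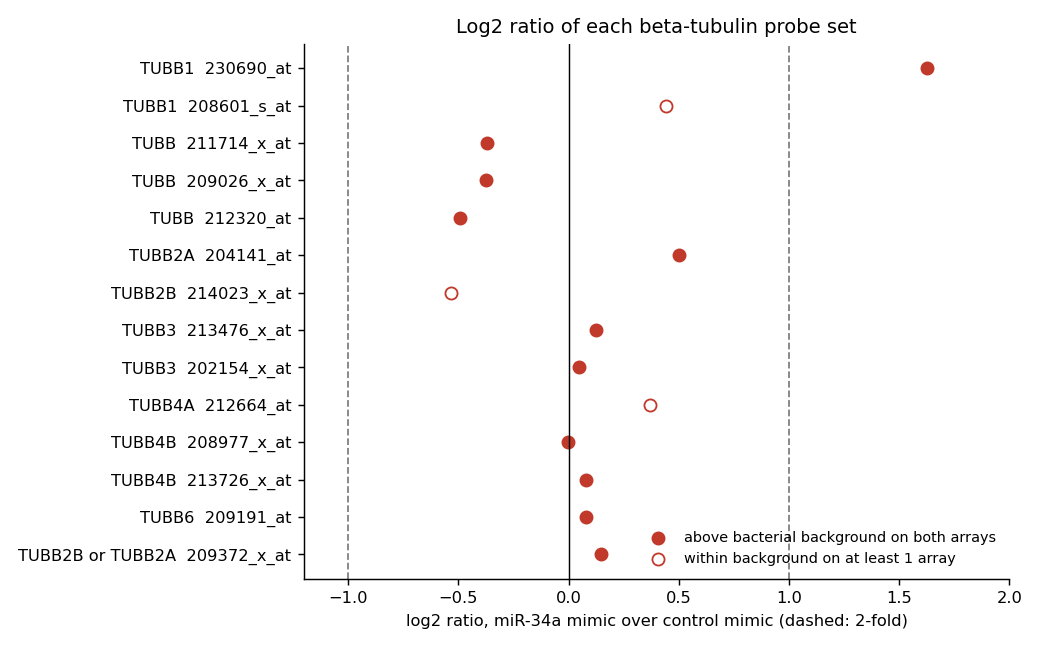
Log2 ratio of miR-34a mimic over control mimic for each beta-tubulin probe set, with open circles for signals within background and dashed lines at 2-fold. One TUBB1 probe set lay past 2-fold at 1.62, the TUBB probe sets lay at -0.37, -0.37 and -0.49, TUBB2A at 0.50, and TUBB3, TUBB4B and TUBB6 between -0.0043 and 0.12.

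The contrast of platelet TUBB1 with the other expressed isotypes was read as a difference of log2 ratios. The other 5 expressed members ranged from -0.37 for TUBB to 0.50 for TUBB2A, with a median of 0.080. TUBB1 was 1.54 above this median, which corresponds to a 2.92-fold difference in ratio. Against the 4 widely made isotypes alone, without TUBB3, the difference was 1.59, a comparison added after the values had been seen. With the probe sets of each gene averaged, the difference was 0.95, since the dim second probe set of TUBB1 then counts equally. Of the 6 expressed members 4 had a positive ratio and 2 a negative one, TUBB and TUBB4B, where 50% of expressed genes lie on each side by the centring. Their median log2 ratio was 0.10, against 0 for all expressed genes.

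**Figure D3:**
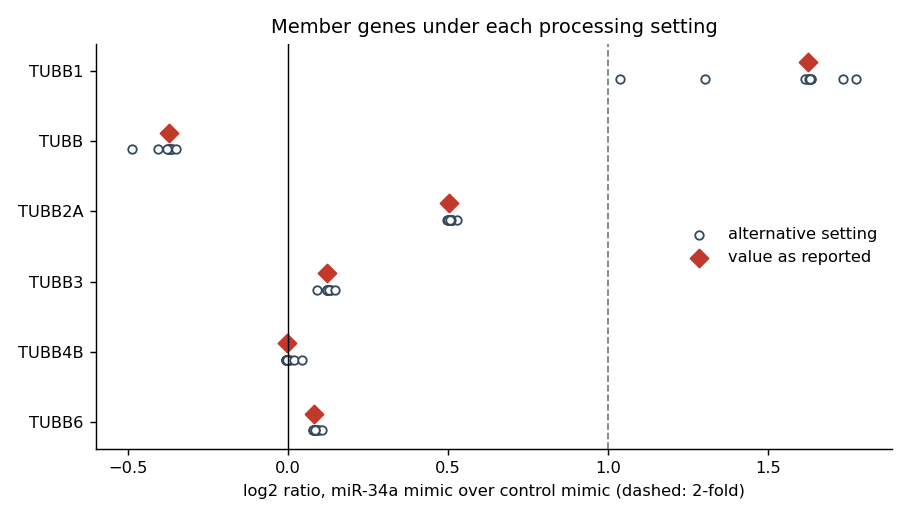
Log2 ratio of each expressed member gene as reported (diamonds) and under each alternative setting (open circles), with a dashed line at 2-fold. TUBB1 stayed between 1.04 and 1.78, TUBB between -0.49 and -0.35, and TUBB2A between 0.50 and 0.53.

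Alpha-tubulins, the partners in the heterodimer, were set beside the beta family. Of 10 listed genes 7 had a probe set of their own and 6 were expressed, 2 of them higher and 4 lower. Their median log2 ratio was -0.038. Past 2-fold were 0 either way, against 0.595% of all expressed genes upwards and 0.548% downwards. The ubiquitous TUBA1B read 12819 with the miR-34a mimic and 13503 with the control mimic on its brightest probe set, a log2 ratio of -0.084, and its 5 expressed probe sets lay between -0.10 and -0.080. TUBA1C had -0.15, with 10032 with the miR-34a mimic and 11050 with the control mimic. These signals lie near the top of the arrays' range, which ended at 15527 with the miR-34a mimic and 15627 with the control mimic. TUBA1A, an alpha-tubulin prominent in neurons, was highest at 0.65, with 611.5 with the miR-34a mimic and 380.6 with the control mimic, followed by TUBA4B at 0.15. TUBA4A and TUBA8 are alpha isotypes found in platelets. TUBA4A had -0.044, with 942.9 with the miR-34a mimic and 966.1 with the control mimic, and TUBA8 read 20.5 with the miR-34a mimic and 23.7 with the control mimic, within background.

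The other tubulins and the nucleation machinery had 0 expressed genes past 2-fold, against 0.595% of all expressed genes upwards and 0.548% downwards. With so few genes, this count is not read as a result. Gamma-tubulin, encoded by TUBG1, starts new microtubules, and TUBG1 had a log2 ratio of 0.13 as the highest of 3 expressed genes, against TUBD1 at -0.064 and TUBE1, the epsilon-tubulin gene of centrioles, at -0.34. TUBB8, the beta-tubulin of oocytes, had no probe set of its own. Of 9 genes of the gamma-tubulin ring complex 8 were expressed, 5 higher and 3 lower, with a median of 0.16. MZT2B and TUBGCP2 were highest at 0.33 and 0.28, and TUBGCP3 and TUBGCP5 lowest at -0.37 and -0.13. The other expressed probe set of TUBGCP5 had -0.46.

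Chaperones that fold tubulin mostly differed little on the brightest probe set of each gene. Newly made tubulin passes through prefoldin and the CCT chaperonin, and 12 genes of these complexes lay between -0.10 for PFDN1 and 0.13 for PFDN5, with CCT3 at -0.073 and PFDN4 at 0.048 and a median of -0.010. The tubulin cofactors then assemble the heterodimer. Of 6 expressed cofactor genes 2 were higher and 4 lower, from ARL2 and TBCB, both at -0.11, to TBCC at 0.032 and TBCD at 0.30, with a median of -0.060. The probe sets of TBCD ranged from -0.056 to 0.51, those of TBCE from -0.081 to 0.50 and those of TBCB from -0.38 to -0.11. For the chaperonin gene CCT5 they ranged from -0.26 to 0.0057.

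All 4 listed genes of tubulin mRNA autoregulation had positive log2 ratios, with a median of 0.22, although 50% of expressed genes do so by the centring. TTC5, which recognises nascent tubulin at the ribosome, had 0.57 and 0.25 on its expressed probe sets. SCAPER, the adaptor that brings in the deadenylase, had 0.32. TTC5 read 75.2 with the miR-34a mimic and 45.3 with the control mimic, and SCAPER was within background too, so no change is read from either. The CCR4-NOT subunits CNOT11 and CNOT1 had 0.12 and 0.021 at signals above background.

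Tubulin modifying enzymes were evenly divided, with 9 of 18 expressed genes higher, 9 lower and a median of -0.0087. TTL, the ligase that puts the last tyrosine back on alpha-tubulin, was lowest at -0.74, with 320.3 with the miR-34a mimic and 540.0 with the control mimic. Its 3 probe sets disagreed, between -0.96 and 0.12. The polyglutamylase TTLL4 had -0.44. TTLL6, another polyglutamylase, was past 2-fold at 1.15, from 105.3 with the miR-34a mimic against a control signal of 39.0 within background. TPGS2, a subunit of the polyglutamylase complex, was next at 0.31, but its 7 expressed probe sets disagreed, between -0.30 and 0.40.

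Of 22 expressed microtubule-associated and severing proteins, 12 were higher and 10 lower, with a median of 0.034. STMN3, a relative of the tubulin-sequestering stathmin, was lowest at -0.95, with 346.8 with the miR-34a mimic and 678.9 with the control mimic. MAP4, the general microtubule-stabilising protein outside neurons, had -0.61 and was lower on each of 5 probe sets, the smallest difference being -0.087. It read 907.6 with the miR-34a mimic and 1385 with the control mimic. CLIP2 had 1.14 but was within background on both arrays, and the severing enzyme gene FIGN had 0.48. STMN1, the stathmin of dividing cells, had 0.060.

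Megakaryocyte and platelet genes were the natural company for TUBB1. Of 24 listed genes 20 had a probe set of their own and 16 were expressed, 9 of them higher and 7 lower, with a median of 0.053. On the brightest probe set of each gene 0 were past 2-fold either way, a count that turns on ITGA2B, the CD41 gene of the platelet integrin. Among all expressed genes the shares past 2-fold were 0.595% upwards and 0.548% downwards. The brightest ITGA2B probe set was just under 2-fold after pseudocount and centring, with 344.0 with the miR-34a mimic and 163.4 with the control mimic, and its other expressed probe set had a log2 ratio of 1.56. GFI1B, a repressor needed for platelet formation, had 0.78, with 970.0 with the miR-34a mimic and 554.1 with the control mimic. NFE2, the transcription factor known from mice to drive the gene for this isotype, had 0.26, with 1841 with the miR-34a mimic and 1524 with the control mimic. GATA1, the factor of the red cell and megakaryocyte lineages, had 0.22 and 0.23 on its 2 probe sets. FLI1 was lowest at -0.68 on a probe set whose miR-34a signal lay within background, while its other expressed probe set had 0.025, and GP9 followed at -0.29, within background on both arrays. GP6, another gene of this list, had 0.72, with 1250 with the miR-34a mimic and 750.4 with the control mimic, above background on both arrays. It was not among the 6 platelet markers fixed for the check of cell types. Of these 6 markers, ITGA2B alone was above background, and PF4, GP9, GP1BA, ITGB3 and PPBP were not, on either array. The signal summed over these 6 markers was 558.7 with the miR-34a mimic and 383.5 with the control mimic, and its part in the TUBB1 ratio was not tested. The difference in this sum came from ITGA2B. The other 5 summed to 214.8 with the miR-34a mimic and 220.0 with the control mimic, 4 of them with a negative and 1 with a positive log2 ratio, all within background. RUNX1 had no probe set of its own.

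**Figure D4:**
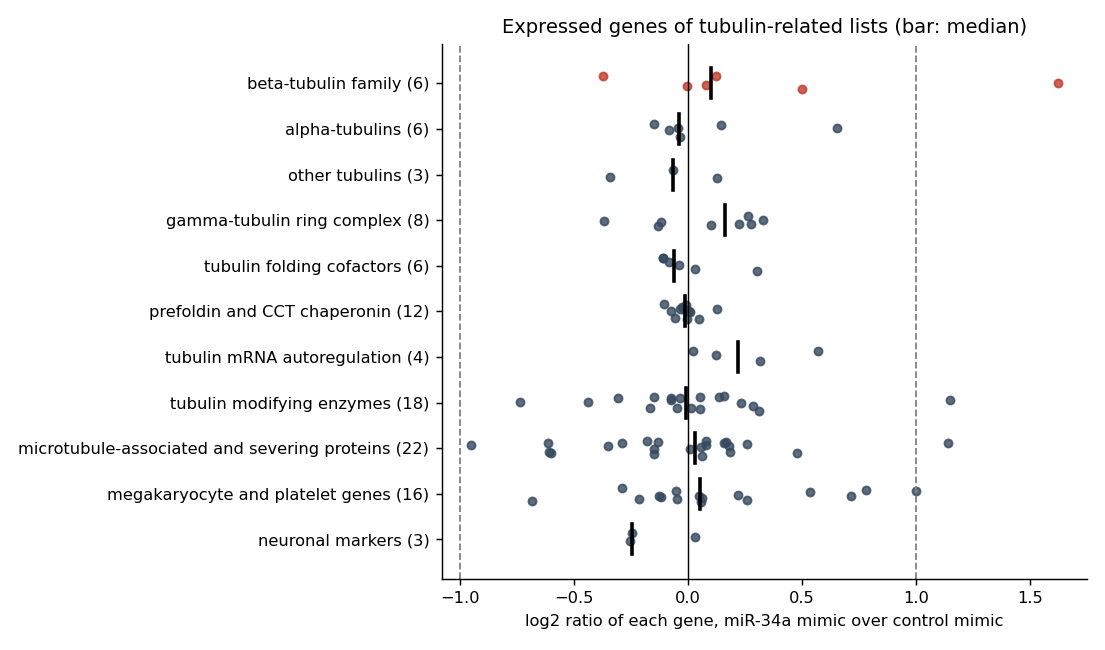
Log2 ratio of miR-34a mimic over control mimic for each expressed gene of the beta-tubulin family (red) and of the related lists, with the number of genes in brackets, bars at the medians and dashed lines at 2-fold. TUBB1 at 1.62 is the highest point of the plot, and the list medians lie between -0.24 and 0.22.

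The genes closest to TUBB1 in level on both arrays, by Euclidean distance over the 2 log2 levels among expressed genes outside the family, were ACRBP, MEIS1 and BBOF1. ACRBP read 316.1 with the miR-34a mimic and 109.1 with the control mimic, a log2 ratio of 1.41. MEIS1 read 289.2 with the miR-34a mimic and 73.1 with the control mimic, a ratio of 1.78 in log2. BBOF1 read 256.9 with the miR-34a mimic and 103.4 with the control mimic, a log2 ratio of 1.19. Genes picked in this way have a like ratio by construction, and signals of different probe sets are not comparable as mRNA levels, so nothing further is read from the match.

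The regions before the transcription starts are shown for the member with the highest ratio and for TUBB, the bright member with the lowest. Sequences are from RefSeq, build GRCh38.p14, plus strand, 250 bases ending just before the start, at chr20:59019179-59019428 for TUBB1 and at chr6:30720102-30720351 for the first of 2 listed TUBB starts. Capitals mark matches to any of 5 short motifs, searched on both strands.
TUBB1: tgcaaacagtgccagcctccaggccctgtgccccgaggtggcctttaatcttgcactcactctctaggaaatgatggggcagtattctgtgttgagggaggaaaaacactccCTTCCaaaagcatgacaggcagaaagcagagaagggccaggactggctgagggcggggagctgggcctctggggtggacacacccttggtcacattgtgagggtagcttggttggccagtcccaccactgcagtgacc
TUBB: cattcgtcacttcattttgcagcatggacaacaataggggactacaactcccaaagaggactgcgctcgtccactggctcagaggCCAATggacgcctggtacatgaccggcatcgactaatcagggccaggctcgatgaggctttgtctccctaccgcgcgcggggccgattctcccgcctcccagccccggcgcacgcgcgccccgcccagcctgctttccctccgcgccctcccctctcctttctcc
The motifs were AGATAA for GATA factors, TGANTCA for NF-E2 and related factors, GGAAG for ETS factors, CCAAT for the CCAAT box and TATAAA for the TATA box. They were found in 9.17, 6.57, 65.1, 32.0 and 10.7% of all 35116 windows of this length. The TUBB1 window held GGAAG on the minus strand and none of the other 4, and this TUBB window held CCAAT alone. The 8 members had 12 windows, so the family is given by window. CCAAT was in 1 of 2 windows each of TUBB, TUBB3, TUBB4A and TUBB6. It was also in the only window of TUBB2B and of TUBB4B, and absent from TUBB1 and TUBB2A. TATAAA was in the window of TUBB2A alone. AGATAA was in 1 of 2 TUBB4A windows and TGANTCA in 1 of 2 TUBB3 windows, with no other member. Besides TUBB1, GGAAG was in 1 of 2 TUBB3 windows and 2 of 2 TUBB6 windows. The array data bear on mRNA levels and not on these sites.

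The arrays were close in overall scale, with a median signal of 40.1 with the miR-34a mimic and 39.5 with the control mimic. The 3′ to 5′ signal ratio, which rises as RNA degrades, was 3.53 with the miR-34a mimic and 3.07 with the control mimic for GAPDH. For ACTB it was 4.54 with the miR-34a mimic and 4.30 with the control mimic. Its part in the tubulin ratios was not tested. All 8 K562 lineage markers with a probe set of their own, among them HBE1, HBZ, GATA1 and KLF1, were above background on both arrays. Of markers of other cell types, the T cell gene CD3D and the epithelial genes EPCAM, KRT8 and KRT18 were above background on both arrays. So were the B cell gene CD79A, the monocyte gene LYZ, the neuronal gene ELAVL4 and the platelet gene ITGA2B. CD3D read 351.9 with the miR-34a mimic and 953.6 with the control mimic, and EPCAM 653.7 with the miR-34a mimic and 1426 with the control mimic, both past 2-fold lower, and their part in the tubulin ratios was not tested. Summed over the 8 K562 markers the signal was 31751 with the miR-34a mimic and 26591 with the control mimic. Most of this difference came from HBZ, with 7672 with the miR-34a mimic and 4258 with the control mimic, and HBE1, with 11843 and 10516. TFRC alone was lower, with 6309 with the miR-34a mimic and 6806 with the control mimic. The part of the summed difference in the TUBB1 ratio was not tested.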

How the data were processed

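Affymetrix arrays measured mRNA in 2 samples, 1 per group. The authors deposited intensity values per probe set, on a linear scale with a lowest value of 1. The software, background correction and scaling behind them were not given in the sources used here.

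The log2 ratio is the difference of log2(intensity + 14.9), the 25th percentile of all deposited values being the pseudocount, and it understates changes of dim genes. The median ratio of expressed genes, 0.0090, was subtracted. Probe sets at or above the 50th percentile of mean level were called expressed, and a gene took its brightest expressed probe set. Genes were named only from the 41091 probe sets with 1 symbol in the platform annotation, while 1801 had several and 11721 had none there. The gene IDs of all 8 members matched RefSeq; TUBB1 is also an old synonym of TUBB there, so matching went by current symbol and ID. Gene coordinates are left out, since the table names no build.

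With 1 array per group no test could be run, and genes were counted at 2-fold. Members and the 10 gene lists were chosen with earlier results of these data known. Named were all members, the 2 highest and 2 lowest of each list, a few fixed genes and the 3 nearest to TUBB1. GP6, TBCE and CCT5 were added after their values had been seen. Alternatives changed pseudocount, filter, centring, normalization (quantile, or loess with span 0.3), probe sets per gene and threshold. Simulated data with known changes were used to test the calculation. Python 3.11.15, NumPy 2.4.6, pandas 2.3.3, statsmodels 0.14.6 and matplotlib 3.10.9 were used.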

Additional observations from a re-analysis of the deposited data

How the results depend on the processing

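Under all alternatives run, TUBB1, TUBB2A, TUBB3 and TUBB6 kept a positive log2 ratio and TUBB a negative one, where they could be computed. TUBB4B, at -0.0043, lay between -0.0061 and 0.042. TUBB1 had 1.30 with 4 times the pseudocount and 1.04 with the mean over its probe sets, and up to 1.78 with no pseudocount; its difference from the median of the other expressed members was 1.22 and 0.95 under the first pair of settings and up to 1.70 under the last. The control signal of TUBB1 is near background, and the mean includes its dim probe set. The count at 2-fold, 1 member higher and 0 lower, was the same at 1.5-fold. It became 2 higher and 1 lower of 6 at 1.2-fold, a threshold chosen after seeing the data, which 16.4% of expressed genes passed upwards and 15.4% downwards. TUBB3 and TUBB4B gave no value without the less specific probe set classes. TUBB2B and TUBB4A had no value with the filter, and the ratio of TUBB2B ranged from -0.97 to -0.23 with the treatment of low signals. Leaving out an array was impossible with 1 per group. No paired analysis was possible because each group had 1 array.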

Other observations

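Kinesin, cytoplasmic dynein and dynactin genes, which include those of motor proteins that walk on microtubules, were counted by symbol. This choice was made after the tubulin values had been seen. Of 34 expressed kinesin genes 15 were higher and 19 lower with the miR-34a mimic, with a median log2 ratio of -0.042. Past 2-fold were 0 of these kinesin genes, against 0.595% of all expressed genes upwards and 0.548% downwards. The highest were KIFC3 at 0.92, KIF3B, a motor subunit of intraflagellar transport, at 0.78 and KIF9 at 0.71. KIF9 read 1057 with the miR-34a mimic and 635.6 with the control mimic, and its 3 probe sets lay between 0.70 and 0.84. The lowest were KIF1C at -0.53, KIF13A at -0.35, with probe sets between -0.44 and 0.20, and KIF2C at -0.29. Of 20 expressed genes for cytoplasmic dynein and dynactin 14 were higher and 6 lower, with a median of 0.20. Among all expressed genes 50% lie on each side by the centring. DYNC1LI2, a light intermediate chain, had 0.54 and was higher on each of 3 probe sets, with 1170 with the miR-34a mimic and 796.2 with the control mimic. The dynactin gene DCTN5 was lowest at -0.61 and was lower on each of 4 probe sets. Of the dynein and dynactin genes DYNC2LI1 alone was past 2-fold, at 1.24 on its brightest probe set. Its 3 expressed probe sets lay between 0.49 and 1.26, so not all were past 2-fold.

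The beta-tubulin pseudogene probe sets for TUBB7P and TUBBP5 read 29.9 and 32.4 with the miR-34a mimic and 46.1 and 32.9 with the control mimic, within background on both arrays.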
